A study of Mus musculus with 48 samples.

Results

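The genes described here are 10 mouse genes whose protein products are secreted by fetal liver and yolk sac: Alb, Afp, Apoa1, Apoa2, Apob, Apoc1, Ambp, Ahsg, Apoh and Serpina6. They were picked by symbol after an earlier look at the same gonadal libraries, in which they stood much higher at E13.5 than at E12.5, so that difference is given below as a description and without a test. All 10 had a row among the 22173 genes counted in the stage libraries and all 10 were found by Ensembl identifier among the 32285 genes of the single-cell library, whereas only Apoa2 and Apoh were among the 13682 genes of the FPKM table.

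These proteins carry lipids, hormones and other ligands in plasma, and hepatocytes are their main adult source. Before and alongside the liver, the visceral endoderm, which is the extraembryonic epithelium that lines the yolk sac, makes many of the same proteins, among them alpha-fetoprotein, transthyretin and the apolipoproteins. Some of them are also made at other sites, such as Apoa1 in the intestine, so that no single gene of the set marks a tissue by itself.

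The stage libraries were bulk RNA-seq of somatic cells separated from C57BL/6 female gonads at E12.5, E13.5 and E16.5 and from ovaries of 6-week-old females (P6w), with 2 libraries per stage and 12694769 to 22259044 assigned counts per library. The FPKM table held 31 bulk libraries. These were embryonic stem cells (ESCs) cultured for 24 h or 48 h without compounds (Con), with vitamin C (Vc), with the retinoic acid receptor alpha agonist AM580, or with both compounds (V580), 2 libraries each; cells after 4, 6, 8 or 10 days in V580, 3 libraries each; and 3 libraries of E12.5 female gonadal cells (E12.5_GC). A single 10x library of V580 day 6 cells held 15412 barcodes without duplicates, of which 15315 passed filters of 200 or more detected genes and no more than 40% mitochondrial UMIs. In the study, ESCs were freed of feeder cells and seeded on fibronectin, and germ cells of E12.5 gonads were removed by magnetic separation on SSEA1. Whether the libraries of a group came from separate cultures or litters is not stated, so p-values measure the spread between these libraries only. In bulk samples, fewer cells of a type and less RNA per cell cannot be told apart.

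The labelled tissue was checked against 8 genes of the gonadal soma. Gata4, a transcription factor of the genital ridge, stood at 181 CPM (counts per 1000000, with the library's assigned counts scaled by TMM, the trimmed mean of M values) at E12.5 and 162 CPM at E13.5, and Nr5a1, the steroidogenic nuclear receptor SF-1, at 208 and 217 CPM. Over the same step Wt1 went from 534 to 192 CPM and Lhx9 from 309 to 175 CPM, and Foxl2, a gene of granulosa cells, from 6.20 to 13.7 CPM.

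In GRCm38 (GENCODE vM21), Alb (chr5:90460897-90476602) and Afp (chr5:90490737-90508907) are neighbours on the plus strand of chromosome 5 and encode the albumin and alpha-fetoprotein of the same family. Apoa1 (chr9:46228580-46230466, plus strand) lies beside Apoc3 and Apoa4 on chromosome 9. Apoc1 (chr7:19689481-19692660, minus strand) lies between Apoc4 and Apoe on chromosome 7. The other genes are single loci: Apoa2 (chr1:171225054-171226379), Apob (chr12:7977648-8016835), Ambp (chr4:63143275-63154799), Ahsg (chr16:22891277-22899449), Apoh (chr11:108343354-108414396) and Serpina6 (chr12:103646630-103657212). Exons of Ahsg overlap those of Gm30505 and exons of Apoh overlap those of Prkca, each on the other strand. The library kit named in the labels does not mark strand, so reads of these overlapping exons could not be assigned to a strand, and the values of Ahsg and Apoh are uncertain to that extent.

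The promoters of 8 of the 10 genes were found in RefSeq (GRCm38.p6), all but Apoc1 and Serpina6. Because the genes moved together at E13.5, the 250 bases before the start site as RefSeq places it were searched on both strands for motifs of factors known in hepatocytes and endoderm. The FOXA motif TGTTTNC, bound by the forkhead factors Foxa1 to Foxa3, was present in 8 of 8, against 19.93% of 27025 genes with a window of the same length. A gene with several start sites was counted where any of its windows held the motif. Apoa2 has a second window (chr1:171221314-171221563), which held no FOXA match. The C/EBP motif TTGCNNAA was present in 5 of 8 (Afp, Ahsg, Alb, Apoa2 and Apob), against 10.8%. The HNF4 motif CAAAGTCCA was found in none of the 8, against 0.451%. The TATA box TATAAA was found in Afp, Apoa2 and Apob, against 14.3%. These matches describe letters in the window and not binding, and other motifs are not reported here. The windows of 3 genes are shown as examples, all on the plus strand from 5′ to 3′ and ending at the base before the start site, with the FOXA match on either strand in capitals. The first 2 are the neighbours Alb (chr5:90460620-90460869) and Afp (chr5:90490464-90490713), and the third is Apoa2 (chr1:171224804-171225053), the gene tested in the stage and FPKM tables, shown with its window that holds the match.
Alb: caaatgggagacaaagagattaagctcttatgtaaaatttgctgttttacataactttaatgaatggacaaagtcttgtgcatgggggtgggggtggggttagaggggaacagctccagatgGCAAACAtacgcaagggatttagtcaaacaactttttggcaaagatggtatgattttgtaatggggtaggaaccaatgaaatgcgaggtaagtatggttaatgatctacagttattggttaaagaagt
Afp: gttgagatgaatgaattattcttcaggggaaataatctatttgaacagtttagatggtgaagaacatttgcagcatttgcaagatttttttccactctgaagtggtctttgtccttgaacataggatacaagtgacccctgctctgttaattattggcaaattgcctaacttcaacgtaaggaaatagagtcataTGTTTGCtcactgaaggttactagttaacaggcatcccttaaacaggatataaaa
Apoa2: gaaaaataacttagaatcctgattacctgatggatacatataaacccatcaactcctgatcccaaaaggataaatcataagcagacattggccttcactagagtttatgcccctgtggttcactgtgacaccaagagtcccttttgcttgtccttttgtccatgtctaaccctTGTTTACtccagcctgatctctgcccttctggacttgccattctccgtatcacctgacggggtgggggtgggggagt
The matches lay 128, 55 and 77 bases before the start site, respectively, and in Alb the match was on the minus strand.

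In both E13.5 libraries, all 10 genes were above both E12.5 libraries, most of them from near the detection limit. Fitted log2 fold changes (edgeR) ranged from 1.78 for Apoc1 to 5.98 for Serpina6 among the 9 genes with counts at E12.5, with a median over the 10 of 5.20 (4.79 with Apob at the bound given with its counts) against 0.03 over all 16398 genes tested. The 10 genes held ranks 13 to 555 of that list. As all 10 passed the low-count filter through their E13.5 libraries and were chosen for this rise, nothing is read from their number beside the 45.9% of all tested genes that passed an adjusted p of 0.05 in either direction, or the 23.8% that were higher.

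**Figure D1:**
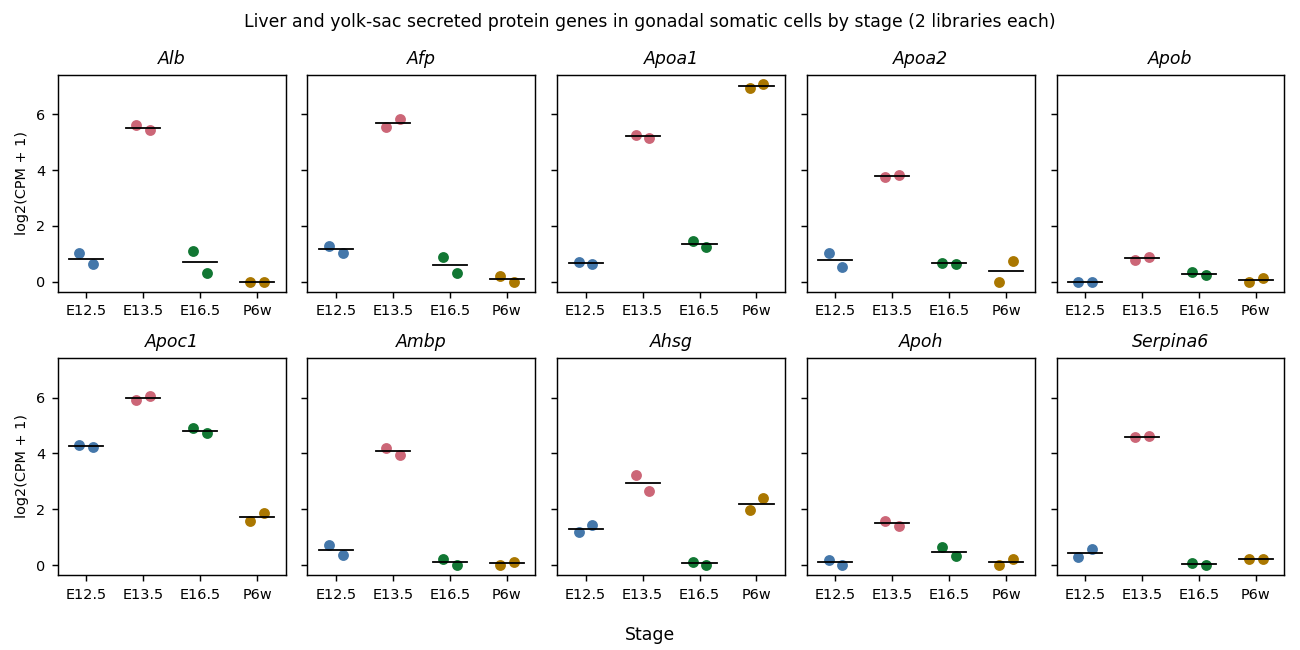
Level of each of the 10 genes as log2(CPM + 1) in the 8 stage libraries, with stages on the horizontal axis, points for libraries and lines for the mean of the 2 libraries. E13.5 is the highest stage for every gene except Apoa1, which reached 122 and 133 CPM at P6w.

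The plasma carrier proteins are described first. Alb, the main carrier of fatty acids and bilirubin in plasma, was at 1.02 and 0.543 CPM in the E12.5 libraries, 47.5 and 42.1 CPM at E13.5, 1.17 and 0.245 CPM at E16.5, and 0 in both P6w libraries. Afp, its fetal counterpart, was at 1.44 and 1.04 CPM, 45.6 and 56.5 CPM, 0.865 and 0.245 CPM, and 0.163 and 0 CPM at the same stages. Both genes were therefore high at a single stage, with E12.5 and E16.5 libraries overlapping for Alb. The fitted log2 difference of E13.5 from E12.5 was 5.82 (SE 0.38) for Alb and 5.36 (SE 0.32) for Afp. Serpina6 encodes transcortin, which carries corticosteroids. Its level was 0.232 and 0.494 CPM at E12.5, 22.8 and 23.4 CPM at E13.5, 0.0433 and 0 CPM at E16.5, and 0.163 and 0.166 CPM at P6w. The single count in the 2 E16.5 libraries against 860 at E13.5 gave the most negative fitted log2 difference of the set between these stages, -9.48.

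Among the apolipoproteins, Apoa1, the main protein of high-density lipoprotein, went from 0.648 and 0.543 CPM to 37.4 and 34.8 CPM, and was at 1.73 and 1.35 CPM at E16.5. Apoa2, the second protein of high-density lipoprotein, was at 1.02 and 0.444 CPM at E12.5, 12.3 and 13.2 CPM at E13.5 and 0.606 and 0.551 CPM at E16.5. Apob, the scaffold of very-low-density and low-density lipoprotein, had no count at E12.5 and 14 and 15 counts (0.711 and 0.855 CPM) at E13.5. Because a count of 0 in both libraries allows up to 3 counts over the group, Apob was at least 10.9-fold higher at E13.5, and its fitted value depends on the model rather than on counts. Apoc1, a small exchangeable apolipoprotein, behaved differently: it was already at 18.8 and 17.7 CPM at E12.5, reached 59.4 and 66.0 CPM at E13.5 and stayed at 28.8 and 25.8 CPM at E16.5. It had the smallest fold change of the set.

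The remaining genes encode a protease inhibitor precursor and plasma glycoproteins. Ambp, the precursor of alpha-1-microglobulin and bikunin, was at 0.648 and 0.296 CPM at E12.5, 17.4 and 14.4 CPM at E13.5 and 0.173 and 0 CPM at E16.5. Ahsg, or fetuin-A, an inhibitor of mineral deposition, was at 1.25 and 1.68 CPM, then 8.43 and 5.30 CPM, then 0.0865 and 0 CPM. The E13.5 libraries of Ahsg differed more from each other, as a ratio, than those of any gene above. Apoh, or beta-2-glycoprotein I, was at 0.139 and 0 CPM, then 1.98 and 1.65 CPM, then 0.562 and 0.245 CPM.

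At E16.5 every gene was lower than in either E13.5 library, again described without a test because E13.5 libraries chose the set. The fitted log2 difference was -5.86 for Alb, -6.40 for Afp, -4.52 for Apoa1, -4.44 for Apoa2 and -1.20 for Apoc1. The summed level of the 10 genes was 25.2 and 22.8 CPM at E12.5, 253 and 258 CPM at E13.5, 34.3 and 28.6 CPM at E16.5 and 127 and 141 CPM at P6w. The P6w sum was almost entirely Apoa1.

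Other genes of liver and yolk sac were counted from lists compiled alongside the set. Of 33 other secreted proteins, 26 could be tested at E13.5 against E12.5, with 22 higher and 2 lower and a median log2 fold change of 3.64. Kng1, the precursor of kinins, went from 0.193 to 9.50 CPM in mean level and Vtn, the adhesion protein vitronectin, from 0.0942 to 4.71 CPM. Ttr, the thyroxine carrier transthyretin, was at 0.278 and 0.148 CPM at E12.5 and 9.34 and 10.5 CPM at E13.5. Gc, the vitamin D carrier, had no count at E12.5 and 16 and 65 counts at E13.5. Apoa4 and Fetub were the 2 lower genes, at 0.38 and 0.664 CPM at E12.5. As these genes share libraries and contrast with the 10, they are no separate evidence for them.

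Genes that hepatocytes keep inside the cell were counted too. Of 28, 18 could be tested, with 5 higher, where 23.8% of all genes were, 1 lower (Hhex) and a median of 0.92. Among the higher genes were Fabp1, Asgr1 and Arg1. Fabp1, the liver fatty acid binding protein, had no count at E12.5 and 32 and 26 counts (1.62 and 1.48 CPM) at E13.5, and no count at E16.5 or P6w. Hnf4a, the master regulator of hepatocyte identity, had 3 and 9 counts at E12.5 and 1 and 15 counts at E13.5, too few for a test. Foxa2 had no count in any of the 4 libraries.

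Genes of the extraembryonic endoderm did not share the direction of the set at E13.5. Of 15, 12 could be tested, with 1 higher and 6 lower and a median of -0.37. The higher gene was Rhox5, an X-linked homeobox gene, from 3.23 to 16.4 CPM in mean level. Among the lower ones, Sox7 went from 6.90 to 1.02 CPM, Gata6 from 115 to 72.0 CPM and Thbd from 26.3 to 15.8 CPM. The markers Sox17, Cubn and Foxa2, of which Foxa2 is also on the hepatocyte list, were low or absent at both stages. Sox17 was at 0.556 and 0.938 CPM at E12.5 and 0.609 and 0.855 CPM at E13.5, Cubn had 15 and 5 and then 17 and 17 counts, and Foxa2 had none. Gata6 and Lamb1 are also expressed outside this tissue. Genes that assemble, bind or export lipoproteins were split, with 3 of 17 tested higher and 5 lower and a median of -0.10. Mttp, which loads lipid onto Apob, was at 6.20 and 7.26 CPM and then 12.54 and 12.7 CPM.

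Most erythroid genes were higher over the same step. Of 16 tested, 11 passed the test upward, where 23.8% of all genes did, and 1 was lower, with a median of 1.69. The adult beta-globin genes Hbb-bs and Hbb-bt were higher by 2.78 and 2.45 on the log2 scale and Klf1, the erythroid transcription factor that drives them, by 2.58, whereas the embryonic globin gene Hbb-bh1 fell by 1.61. Reads of Hbb-bs and Hbb-bt can be shared between these near-identical copies. The summed erythroid level was 15811 and 14426 CPM at E12.5, 35391 and 32761 CPM at E13.5, 15712 and 11191 CPM at E16.5 and 272 and 303 CPM at P6w. Most single erythroid genes did not return to their E12.5 level with this sum. At E16.5, 13 of the 16 were higher than at E12.5 and 3 lower, with a median of 1.94 against -0.01 over all genes. Klf1 was at 156 and 164 CPM at E13.5 and 130 and 168 CPM at E16.5. From E12.5 to E13.5, macrophage genes were higher for 5 of 8 and lower for 1, and mesonephric tubule genes higher for 2 of 5. Over that step gonadal somatic genes were higher for 2 of 8 and lower for 3, and pluripotency genes higher for 2 of 5 tested. The part of cells from liver, yolk sac or blood in the E13.5 libraries was not tested. Most of the other secreted liver proteins and most erythroid genes were higher there together with the 10 genes. Hepatocyte genes that are not secreted were higher for 5 of 18, where 23.8% of all genes were, and Hnf4a had 1 and 15 counts. The endoderm markers Sox17 and Cubn were under 1 CPM. Foxa2, which is on both the endoderm and the hepatocyte list, was at 0.

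**Figure D2:**
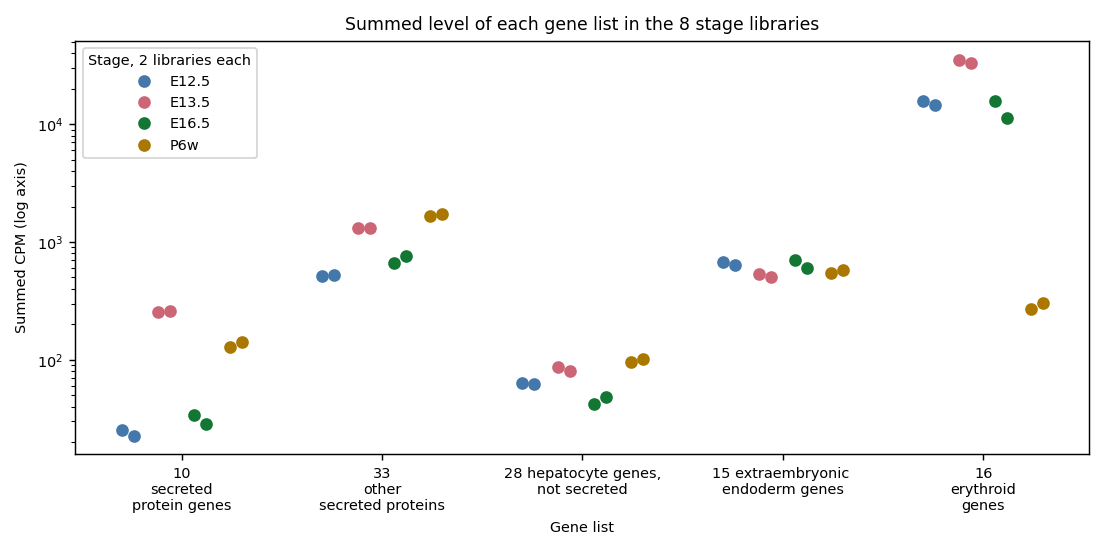
Summed CPM on a log axis for 5 gene lists (horizontal axis) in the 8 stage libraries, colored by stage, 1 point per library. The 10 secreted protein genes stand at 253 and 258 CPM at E13.5 and the erythroid sum is also highest there, while the extraembryonic endoderm sum is lowest at E13.5.

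Short transcripts stood higher relative to long ones at E13.5: across the tested genes with a known exon length, the Spearman correlation of the fold change with exon length was -0.49, a description across genes, which are not independent replicates. With each library corrected for its trend with length, the median of the set was 4.83, and the values of Apoa2 and Apoc1, the shortest of the 10 (537 and 744 bases), went from 4.10 to 3.36 and from 1.78 to 1.01. The counts and medians of the other gene lists at this step, given above, were not corrected for length. Differences between those lists may carry this trend, which was not tested. The genes whose profile over the 8 libraries was most like the mean standardized profile of the set were Rpl36al (Pearson r 0.998), Kng1 (0.994), Gm15543 (0.994), Mrpl54 (0.994) and Iah1 (0.993), among 12583 candidates. Kng1 is the one of these that liver secretes. Rpl36al and Mrpl54 encode ribosomal proteins and went from 74.3 to 133 CPM and from 57.9 to 123 CPM. Within the set, Serpina6, Ambp, Apoa2, Alb, Afp, Apoh and Apob had r of 0.94 to 0.99 with that profile, and Ahsg (0.71), Apoc1 (0.66) and Apoa1 (0.37) departed from it. All libraries of a stage share that stage, so these values describe 4 points more than 8.

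The comparison of P6w with E16.5 used libraries that played no part in the choice of the genes, and asks which of them are expressed in adult ovarian somatic cells. Of the 10, 2 genes rose and 3 fell, against 26.3% and 29.8% of all 16398 genes tested (56.1% in either direction; edgeR quasi-likelihood test, Benjamini-Hochberg adjusted p below 0.05). Nothing is read from this count, because the 10 genes passed the low-count filter with E13.5 among the libraries. In a fit of the 2 stages alone, 3 of the 10 (Apoa1, Apoc1 and Ahsg) passed the filter and all 3 were called, whereas Alb, Afp and the other 5 had too few counts to be tested. The median log2 fold change was -1.70, also with Alb at its bound, against -0.04 over all genes.

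Apoa1 rose from 1.73 and 1.35 CPM at E16.5 to 122 and 133 CPM at P6w, a log2 fold change of 6.35 (SE 0.19, edgeR adjusted p = 2.23e-12). This P6w level was also above the 37.4 and 34.8 CPM of E13.5, which makes Apoa1 the one gene of the set whose highest stage was the adult ovary. Its neighbours on chromosome 9 moved the same way. Apoa4 (chr9:46240696-46243459), an intestinal apolipoprotein, had 1 and 0 counts at E16.5 and 4916 and 4933 counts (401 and 410 CPM) at P6w (edgeR adjusted p = 2.47e-13). Apoc3 (chr9:46232933-46235636), an inhibitor of lipoprotein lipase, was at 0.216 and 0 CPM and then 14.3 and 17.3 CPM (edgeR adjusted p = 7.35e-08). Apoa5 (chr9:46268633-46271919), the fourth gene of this cluster, had 0 and 3 counts and then 4 and 3, too few for a test. At E13.5, by contrast, Apoa4 had no count and Apoc3 1 and 0, and Apoa5 had 12 and 1.

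Ahsg rose from 2 and 0 counts at E16.5 to 36 and 51 counts (2.94 and 4.24 CPM) at P6w. The ratio was 70.7 with a counting interval of 19.0 to 593 (exact binomial, 95%; edgeR adjusted p = 2.96e-06). Fetub, the other fetuin gene, rose as well, from 0.0306 to 46.2 CPM in mean level (edgeR adjusted p = 8.49e-11).

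Apoc1 fell from 28.8 and 25.8 CPM to 1.96 and 2.66 CPM, by 3.56 on the log2 scale (SE 0.21, edgeR adjusted p = 1.55e-09). Apoe, next to it on chromosome 7 and a lipid carrier made by many tissues, went the other way, from 609 and 692 CPM to 1060 and 1146 CPM (log2 fold change 0.76, edgeR adjusted p = 4.59e-05). Alb had 27 and 4 counts at E16.5 and none at P6w, at least 6.35-fold lower by the summed counts (edgeR adjusted p = 0.0028). Most of its E16.5 counts lay in replicate 1 (1.17 CPM, against 0.245 CPM in replicate 2), and the bound does not cover that spread. Afp fell from 20 and 4 counts to 2 and 0, by 2.76 on the log2 scale (SE 0.94, edgeR adjusted p = 0.0204). This call rests on single libraries: it was lost without E16.5 replicate 1 (-1.49, adjusted p = 0.303) and without P6w replicate 2 (-1.83, adjusted p = 0.161).

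For the other 5 genes no difference passed the test, at totals of 1 to 23 counts per stage. Apoa2 had 14 and 9 counts at E16.5 and 0 and 8 at P6w (edgeR adjusted p = 0.41). Without P6w replicate 2 it was lower at P6w (-6.46, adjusted p = 0.0143) and without P6w replicate 1 its fold change was 0.18. Apoh had 13 and 4 counts and then 0 and 2, Apob 6 and 3 and then 0 and 1, Ambp 4 and 0 and then 0 and 1, and Serpina6 1 and 0 and then 2 and 2. No difference was detectable in these genes with these counts and this spread between libraries.

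Of the wider lists at P6w, 6 of 26 other secreted proteins were higher and 4 lower, 9 of 18 hepatocyte genes higher and 2 lower, 3 of 12 endoderm genes higher and 7 lower, and 6 of 17 lipoprotein genes higher and 3 lower. Over all genes tested, 26.3% were higher and 29.8% lower, which are the shares to set beside each list here. Scarb1, the receptor that takes up cholesterol from high-density lipoprotein, rose from 74.2 to 541 CPM in mean level, and Vldlr from 4.03 to 19.7 CPM. Onecut2 rose from 0.33 to 9.53 CPM, Asgr2 from 0.144 to 1.97 CPM and Itih2, a chain of the hyaluronan-binding inter-alpha inhibitor, from 0.395 to 12.2 CPM. Fabp1 stayed without a count and Hnf4a had 0 and 0 and then 3 and 2 counts. All 16 erythroid genes and 4 of 5 mesonephric genes were lower, 4 of 8 macrophage genes were higher, 2 of 8 gonadal somatic genes were higher and 4 lower, and 4 of 5 pluripotency genes were lower. The library codes in the labels carry L5 for E12.5, E13.5 and E16.5 replicate 1 and L1 for E16.5 replicate 2 and P6w, with no explanation of the codes. Without E16.5 replicate 1, which leaves L1 libraries only in this comparison, 4 of the 10 genes were called: Apoa1 (6.56), Apoc1 (-3.48), Ahsg (36 and 51 counts against 0) and Alb (0 counts against 4).

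In the FPKM table (fragments per kilobase of transcript and library size), only Apoa2 and Apoh could be read, and values of the other 8 genes were not analysed here. Apoh was between 0 and 0.47 FPKM in all 31 libraries and did not reach the 1 FPKM needed for a test. The highest value was that of E12.5_GC replicate 1. Its fragments there, estimated from the steps between low values, were 21.0, and the other libraries were at or below 3.999.

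Apoa2 was well expressed in ESCs and was higher at 48 h than at 24 h. It was at 34.1 and 35.8 FPKM in Con at 24 h and at 51.1 and 54.5 FPKM in Con at 48 h, a log2 difference of 0.58 (SE 0.11, limma adjusted p = 3.30e-04) that stayed under the 2-fold also asked of a call, which 7.72% of the 10644 genes tested passed. In V580 it was at 26.9 and 28.4 FPKM at 24 h and 35.6 and 30.6 FPKM at 48 h. In AM580, whose columns are named X580 and were read as AM580 because V580 has its own, it was at 32.2 and 31.7 FPKM and then 38.3 and 40.1 FPKM. Both V580 libraries were below both Con libraries at each time. On the log2(FPKM + 1) scale the V580 difference was -0.33 at 24 h (SE 0.11, limma adjusted p = 0.0403) and -0.66 at 48 h (SE 0.11, limma adjusted p = 1.54e-04), and that of AM580 at 48 h was -0.42 (SE 0.11, limma adjusted p = 0.00514). None was 2-fold, so Apoa2 was not called, where 0.695% (V580, 24 h), 3.23% (AM580, 48 h) and 3.18% (V580, 48 h) of genes were. By the adjusted p alone Apoa2 passed in these 3 comparisons, as did 29%, 57% and 57.1% of all genes. AM580 at 24 h differed from Con by -0.12 (SE 0.11, limma adjusted p = 0.535; 0.404% of genes called). All these comparisons share the Con libraries of their time.

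Vitamin C alone gave 31.99 and 22.4 FPKM at 24 h and 49.2 and 53.6 FPKM at 48 h. Its replicates at 24 h lay further apart than the group differed from Con (-0.37, SE 0.11, limma adjusted p = 0.0412). That difference also passed by the adjusted p alone, but it was under 2-fold and so not called, where 0.0846% of genes were. The share of genes passing by the adjusted p alone is not given for this comparison. At 48 h the groups overlapped (-0.04, SE 0.11, limma adjusted p = 0.87), where 0.047% of genes were called. The effect of V580 was not shown to differ between 48 h and 24 h (difference -0.33, SE 0.16, limma adjusted p = 0.118), nor that of AM580 (-0.30, SE 0.16, limma adjusted p = 0.162). V580 and AM580 were at a log2 difference of -0.24 at 48 h (SE 0.11, limma adjusted p = 0.148; 0.263% of genes called) and -0.20 at 24 h (SE 0.11, limma adjusted p = 0.254; 0.0658%). At 48 h of AM580, 9 of 13 extraembryonic endoderm genes tested were called higher and none lower, where 3.23% of all genes were called. Among them were Gata6, from 0.122 to 2.03 FPKM, and Cubn, from 0.107 to 2.70 FPKM. With V580 2 of 13 were called higher and none lower, where 3.18% of all genes were called. The median log2 difference of the 13 from Con was 1.23 with AM580 and 0.62 with V580, and -0.03 and -0.02 over all genes. None of the 13 was called between V580 and AM580.

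Over the days of V580 treatment, Apoa2 was lowest at day 6 and highest at day 10. It was at 8.02, 5.57 and 6.91 FPKM at day 4, 3.60, 3.94 and 3.04 FPKM at day 6, 5.32, 6.20 and 4.85 FPKM at day 8 and 17.1, 17.2 and 16.7 FPKM at day 10. The libraries of day 6 overlapped with those of no other day. From day 6 to day 10 Apoa2 rose by 2.00 on the log2(FPKM + 1) scale (SE 0.63, limma adjusted p = 0.0146), a call that 6.83% of the 11512 genes tested passed in either direction and 5.32% upward. From day 4 to day 6 the difference was -0.78 (SE 0.63, limma adjusted p = 0.337), where 5.08% of genes were called. Day 8 differed from day 6 by 0.51 (limma adjusted p = 0.551; 2.55% of genes called) and day 10 from day 8 by 1.48 (limma adjusted p = 0.0846; 1.29%). The widely spread E12.5_GC libraries are in the same fit and share its estimate of error. In a fit of the 12 V580 libraries alone, chosen after the spread of E12.5_GC was seen, the SE was 0.10, and the adjusted p was 1.08e-05 for day 6 against day 4 (limma), 5.75e-04 for day 8 against day 6, 3.40e-10 for day 10 against day 6 and 4.50e-08 for day 10 against day 8.

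**Figure D3:**
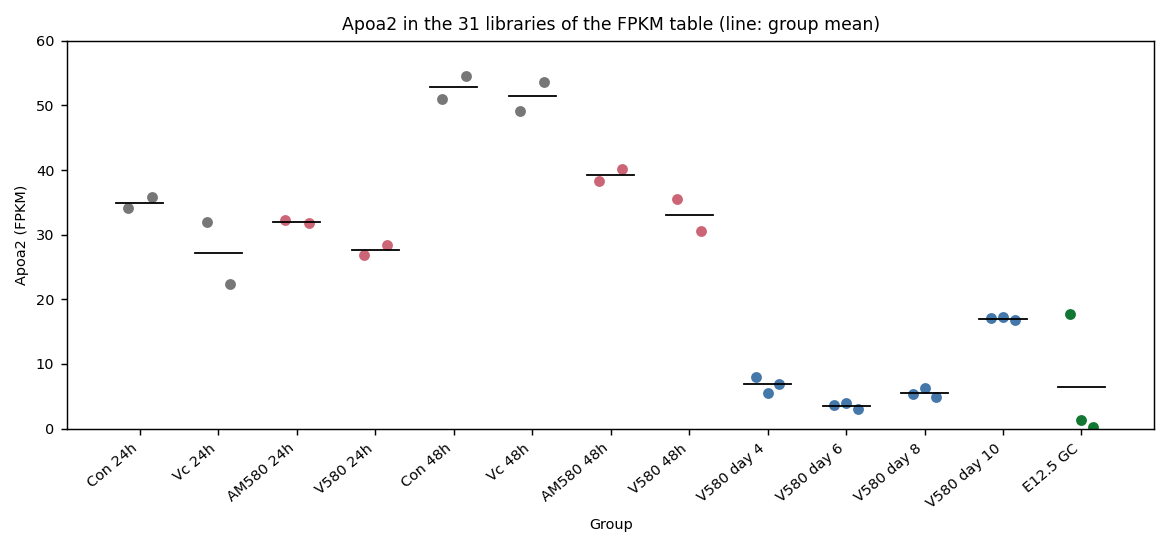
Apoa2 in FPKM (vertical axis) in the 31 libraries by group, 1 point per library with a line at the group mean. The 3 E12.5_GC libraries spread from 0.29 to 17.7 FPKM, while the V580 day 10 libraries lie between 16.7 and 17.2 FPKM.

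Apoe followed the same course over these days, from 162 FPKM in mean level at day 4 to 64.3 FPKM at day 6 (log2 difference -1.32, limma adjusted p = 2.94e-06) and 226 FPKM at day 10 (1.80, limma adjusted p = 8.13e-08). It was the one secreted protein of the wider list that was called among the 2 tested from day 6 to day 10. The endoderm genes Foxa2 and Cubn went down over that step, from 17.5 to 7.80 FPKM and from 6.22 to 2.48 FPKM, and no other of 13 endoderm genes was called. Cebpa, a transcription factor of hepatocytes and fat cells, rose from 2.53 to 12.4 FPKM and was the only one of 8 hepatocyte genes called higher. Hnf4a (0.627 to 2.14 FPKM), Asgr1 (0.254 to 1.40), Arg1 (4.21 to 8.36) and Fah (6.18 to 10.3) rose too. These passed an adjusted p of 0.05 (limma) but stayed under 2-fold on the log2(FPKM + 1) scale. Foxa2, Prox1 and Hhex, also on the hepatocyte list, were lower, and of these Foxa2 was called. Lrp1 and Vldlr, receptors for lipoproteins, rose from 17.5 to 60.9 FPKM and from 1.83 to 7.53 FPKM. Of the other lists, 1 of 7 macrophage genes (Cd68) and 2 of 8 gonadal somatic genes (Gata4 and Wnt4) were called higher. Of 4 pluripotency genes, 1 (Sox2) was called lower, and none of 3 erythroid or 3 mesonephric genes was called.

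Against the E12.5 gonad, Apoa2 could not be placed, because the 3 E12.5_GC libraries were at 17.7, 1.35 and 0.29 FPKM. The difference of V580 day 6 from them was 0.23 (SE 0.63, limma adjusted p = 0.756), where 15.2% of genes were called. It was 1.38 (limma adjusted p = 4.62e-05) without E12.5_GC replicate 1, and -0.12 and -0.56 without replicates 2 and 3. Day 10 differed by 2.23 (SE 0.63, limma adjusted p = 0.0059; 16.4% of genes called), although the groups overlap. The summed level of 5 erythroid genes had the same order in these libraries, at 4441, 1694 and 1040 FPKM, and was below 1 FPKM in all V580 day libraries. All 5 erythroid genes, 11 of 14 hepatocyte genes and 8 of the 10 other secreted proteins in this table were also highest in replicate 1, among the secreted ones Serpinf2 at 7.09, 0.0183 and 0.0879 FPKM, Itih2 at 6.26, 0.0129 and 0 FPKM and Apom at 4.94, 0.379 and 0.403 FPKM. Hnf4a was at 0.857 FPKM in replicate 1 and 0 in the others. Highest in replicate 1 were also all 5 mesonephric tubule genes, 7 of 13 endoderm genes, 6 of 15 lipoprotein genes and 3 of 6 pluripotency genes. For macrophage genes this count was 3 of 8 and for gonadal somatic genes 2 of 8. The share over all genes is not given here. What part cells of blood or liver had in the Apoa2 level of E12.5_GC replicate 1 was not tested. Among the 5 genes most like the mean profile of Apoa2 and Apoh over these 15 libraries were Arrdc3 (r = 0.86), Ddit4 (0.85), Abcb10 (0.81) and Hspb1 (0.79), each above the mean of every V580 day in E12.5_GC replicate 1.

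The single cells of V580 day 6 show in which cells these genes were read. The 10 genes had 10245 UMIs (unique molecular identifiers, 1 per captured transcript) of 162844907, 6698 of them from Apoc1. Clusters were built from 2000 variable genes that left out the 10 genes and the list of other secreted proteins. Cluster 6, with 924 of 15315 cells and 14.1% of all UMIs, held 39.99% of the UMIs of the 10 genes (exact 95% interval 39.0 to 40.9) and 66.9% of those of the 9 genes without Apoc1 (65.3 to 68.4). Such intervals cover counting error only, and 1 library allows no test between groups. Levels in clusters are given as UMIs per 1000000 UMIs of that cluster (UPM).

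Cluster 6 was extraembryonic endoderm-like: 10 of 12 fixed markers of that tissue were at over 2-fold their level in the other cells, and its leading genes by fold were Srgn, Rbp4, Pitx1, S100g, Hs3st1, Cubn, Fst, Flt1, Ctsh and Spink1. Its cells had a median of 22917 UMIs, against 9281 over all cells, and no doublet caller was run, so that the part of doublets was not tested. Afp had 94 of its 114 UMIs there (82.5%, interval 74.2 to 88.9). Apoa1 had 1332 of 1736 (76.7%, 74.7 to 78.7), Apoa2 801 of 1311 (61.1%, 58.4 to 63.7) and Apob 104 of 131 (79.4%, 71.4 to 86.0). All 4 shares were above the 14.1% of all UMIs that the cluster held.

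**Figure D4:**
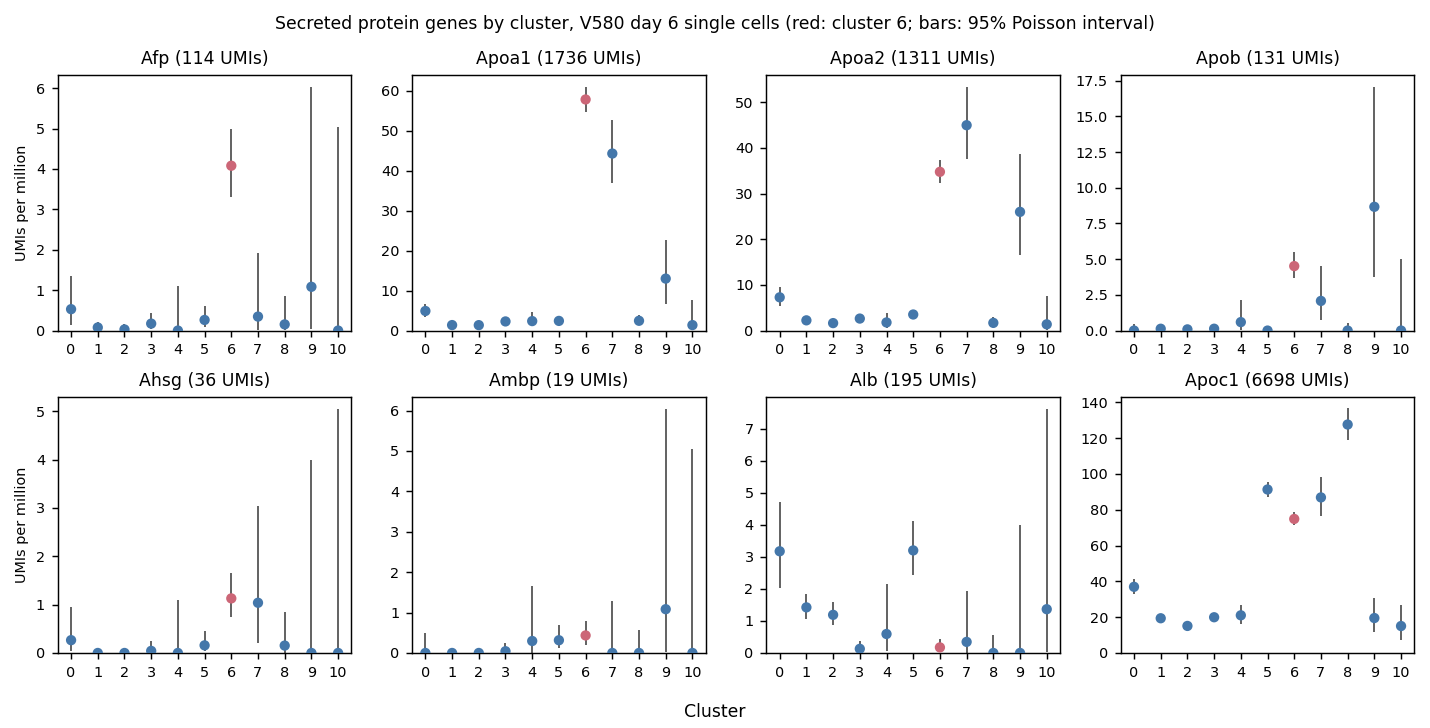
UPM (vertical axes, own scale per gene) of 8 genes in clusters 0 to 10 (horizontal axis) of the V580 day 6 cells, with 95% Poisson intervals of the counting error and cluster 6 in red. Apoa1 was at 57.8 and Afp at 4.08 UPM in cluster 6, whereas Alb was highest in clusters 0 and 5; cluster 11, with 21 cells, is not drawn.

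Cluster 7 shared part of this pattern. It held 701 cells with a median of 2905 UMIs and stayed unnamed, because the mean log2 ratio of the endoderm markers was 0.68, under the 1 asked of a name, although 5 of them were at over 2-fold. Cited1, S100g, Gpx2 and Pitx1 led it. Apoa1 was at 44.3 UPM there (interval 37.0 to 52.7) and 57.8 in cluster 6 (54.8 to 61.0). Apoa2 was at 45.0 (37.6 to 53.4) and 34.8 (32.4 to 37.3). Afp was at 0.346 in cluster 7 (0.00876 to 1.93) and 4.08 in cluster 6 (3.30 to 4.99), so that these intervals did not overlap. In cluster 9, which was also extraembryonic endoderm-like and was led by the basement membrane genes Lama1, Col27a1 and Tinagl1, Apoa1 was at 13.0 (6.72 to 22.7), Apoa2 at 26.0 (16.7 to 38.7) and Apob at 8.67, from 8 UMIs. The interstitial-like cluster 3 had Apoa1 at 2.28 (1.71 to 2.99) and Apoa2 at 2.63 (2.01 to 3.37). Outside clusters 6, 7, 9 and 11, Apoa1 was at 1.36 to 4.90 UPM, Apoa2 at 1.37 to 7.28 UPM and Apob at 0 to 0.592 UPM, with the highest values of Apoa1 and Apoa2 in cluster 0, whose cells had a median of 1451 UMIs.

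Alb did not follow Afp. Its 195 UMIs fell in 167 cells with at most 3 per cell, and 61 of them were in cluster 5, which stayed unnamed and was led by Wfdc2, Cxcl15, Stra8 and Cldn3. A further 56 and 43 were in the unnamed clusters 1 (1.42 UPM) and 2 (1.19 UPM). Alb was at 3.20 UPM in cluster 5 (2.45 to 4.11) and 3.18 in cluster 0 (2.04 to 4.73), but at 0.174 in cluster 6 (0.0473 to 0.445) and 0.129 in cluster 3 (0.0266 to 0.378). Of cells in cluster 5, 4.77% had an Alb UMI, against 0.433% in the deeper cluster 6. These intervals do not overlap, so the Alb UMIs were not spread evenly over the cells. The 10 cells with most UMIs of the set, Apoc1 left out, all lay in cluster 6 and held 1 Alb UMI in all.

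Apoc1 was read widely, in 3258 cells, and was highest in cluster 8, which was led by Rhox9, Sct and Rhox6, at 128 UPM (119 to 137). It was at 91.3 in cluster 5 (87.0 to 95.7), 86.9 in cluster 7 (76.4 to 98.3) and 74.8 in cluster 6 (71.3 to 78.5), and at 15.1 in cluster 2, led by the proliferation genes Aspm and Mki67 (13.9 to 16.4). Ahsg had 36 UMIs in 36 cells, 26 of them in cluster 6, and Ambp 19 UMIs, 10 of them there. Serpina6 had 4 UMIs and Apoh 1, so that these were at the limit of detection. Apoa2 also had 8 UMIs in the 21 cells of cluster 11, which was led by genes such as Zscan4d and Zscan4c, at 74.0 UPM (31.96 to 146).

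High levels were a matter of few cells. Afp was read in 36 cells and up to 51 UMIs in a cell, and Apob in 56 cells and up to 20. The 50 cells with most Apoa1 UMIs held 63.8% of them, and for Apoa2 the share was 59.5%. The cell with most UMIs of the set held 109 Apoa1, 131 Apoa2, 20 Apob and 7 Afp UMIs among 82440 UMIs. The next held 129 Apoa1, 63 Apoa2, 51 Afp and 17 Apob UMIs among 24706. Other cells among the 10 highest had 94 and 73 Apoa1 UMIs but 1 and 0 of Apoa2, so the genes did not always occur together.

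UMIs of at least 3 of the 10 genes were found in 86 cells (0.562% of all), of which 57 lay in cluster 6, 13 in cluster 7 and 7 in cluster 5. These cells had a median of 23556 UMIs, against 9229 in the rest, and deep cells reach 3 genes more easily. By the share of their own UMIs found in these 86 cells, the leading other genes with at least 200 UMIs were Nepn (35.3%), Ttr (34.8%), Apom (33.04%), Fgb (30.1%) and Lgals2 (30.0%). Ttr, Apom, which carries sphingosine-1-phosphate on high-density lipoprotein, and Fgb, a fibrinogen chain, are secreted by liver as well. Of 17 other secreted proteins with at least 20 UMIs, 14 were at over 2-fold the level of the remaining cells, as were 10 of 15 endoderm genes and 9 of 13 hepatocyte genes, against 7.39% of 16963 genes. Among endoderm genes, Cubn was at 170 against 29.4 UPM, Amn at 27.1 against 1.38 and Sox17 at 131 against 36.5, while Gata6 was at 98.8 against 149. Among hepatocyte genes, Hnf4a was at 10.1 against 1.25, Foxa3 at 22.3 against 2.70 and Foxa2 at 58.2 against 18.2. Of the 28 hepatocyte genes, 13 had at least 20 UMIs in the whole library. Cps1, Tat and Fabp1 had 3, 1 and 5 UMIs, while Arg1 had 631 (2.19 against 3.90 UPM) and Asgr1 196 (4.37 against 1.16 UPM). Of the other lists, 4 of 16 lipoprotein genes, 3 of 6 pluripotency genes, 1 of 3 macrophage genes, and none of 2 erythroid, 6 mesonephric or 7 gonadal somatic genes were at over 2-fold.

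The stage libraries and the single cells shared some of the genes that stood beside the set and differed in others. Other secreted proteins stood beside it in both, with 22 of 26 higher at E13.5 and 14 of 17 over 2-fold in the 86 cells. Of the hepatocyte genes, 5 of 18 were higher at E13.5, where 23.8% of all genes were. In the 86 cells 9 of 13 were over 2-fold, where 7.39% of all genes were. At E13.5, Fabp1 and erythroid genes were higher beside it, and Foxa2 had no count and Sox17 and Cubn were under 1 CPM. In V580 day 6 cells, Foxa2, Sox17 and Cubn stood beside it, Fabp1 had 5 UMIs, and the summed erythroid level was 1.75 UPM in the 86 cells and 0.816 in the rest. Alb was among the highest genes of the set at E13.5 and was at or near 0 in cluster 6. These are values from different protocols, and no test between them was made. The rules differed as well: an adjusted p below 0.05 with no fold limit at E13.5, and over 2-fold without a test in the 86 cells. Different genes of each list could be counted, so the counts of the stage libraries and the single cells are not compared in size.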

How the data were processed

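The 10 genes, the gene lists and the tests were chosen with earlier results of these data known. The submitters' processing notes name Trim Galore, FastQC, HISAT2, SAMtools, featureCounts and RSEM with the mm10 genome. Their versions are not given in the sources used here. The deposited stage table held raw counts per gene, made by the authors with HISAT2 and featureCounts. The deposited FPKM table held length- and depth-normalised values, and the deposited 10x table held raw UMI counts from Cell Ranger. The study describes more than 1 10x run, and a single library was analysed here. FPKM columns named X580 were read as AM580, because V580 has columns of its own. A further table, with 10 columns that match no label, was not used.

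Stage counts were filtered (filterByExpr, 16398 of 22173 genes) and TMM-scaled. The test was edgeR 4.0.16 in R 4.3.3, fitted by quasi-likelihood over all 8 libraries, at a Benjamini-Hochberg adjusted p below 0.05. CPM were computed per TMM-scaled assigned counts of each library. FPKM were tested with limma 3.58.1 (trend) on log2(FPKM + 1), for genes reaching 1 FPKM in 3 libraries (days) or 2 (treatments), where a call also asked for 2-fold. Such fold changes understate those of low genes. Single cells passed the filters given above and were clustered with scanpy 1.11.5 and leidenalg 0.10.2 (20 components, 20 neighbours, resolution 0.5, seed 0). Of 32285 identifiers, 32158 matched a symbol. A cluster was named where the mean log2 ratio of a type's listed markers was 1 or more, 3 or more of them were over 2-fold no other type had more markers among the 10 leading genes, and a cluster with a median under 1/3 of the UMIs of all cells had a marker among them. This naming rule was not fixed together with the marker lists. Intervals are exact binomial (Clopper-Pearson) or exact Poisson at 95% and cover counting error only, as do limits from 3 counts. The tests were tried on simulated data.

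Genes outside the set were named by rule: up to 4 called genes of largest change per list and comparison with a group mean of at least 1, the 5 of most similar profile, and, in single cells, the 5 with the largest share of UMIs in cells with at least 3 of the 10 genes. Some genes that these rules picked are not reported here. Others were named after their values were seen: genes of the gonadal soma and neighbours of Apoa1 and Apoc1, Fetub, Hhex, Hnf4a, Foxa2, Sox17, Cubn, Lamb1, Mttp and Hbb-bh1 in the stage libraries, and Cubn, Amn, Sox17, Gata6, Hnf4a, Foxa3, Foxa2, Cps1, Tat, Fabp1, Arg1 and Asgr1 in the single cells, and Serpinf2, Itih2, Apom and Hnf4a in E12.5_GC. In the V580 days, Hnf4a, Asgr1, Arg1, Fah, Prox1 and Hhex were also named after their values were seen. Alternatives were other scaling (RLE, DESeq2 1.42.0, length and GC offsets, median scaling of FPKM), no filter, other pseudocounts, a replicate block, pairs of groups alone, no fold limit, leaving out each library, and other cell filters and clusterings.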

Additional observations from a re-analysis of the deposited data

How the results depend on the processing

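The count of 5 genes that changed between E16.5 and P6w was the same with DESeq2, RLE scaling, no filter, length or GC offsets and the replicate block, was 4 to 5 when 1 library was left out, and was 3 in a fit of the 2 stages alone, which left 3 of the genes to test. DESeq2 called 8572 genes and the main test 9206, of which 8487 were shared. The median E13.5 fold change of the set was 4.83 with a length offset and 4.86 to 5.65 when 1 library was left out. Without E16.5 replicate 1, the fold change of Ambp was 2.73 and without P6w replicate 1 that of Apoa2 was 0.18, both turned in direction. Over the libraries left out, Ambp ranged from -4.00 to 2.73 and Apoa2 from -6.46 to 0.18. For Apoa2 at V580 day 6 against E12.5_GC, the difference was -0.10 with a pseudocount of 5, -0.12 without E12.5_GC replicate 2 and -0.56 without replicate 3 (range -0.56 to 1.38), and the count of genes called was 0 to 1 when 1 library was left out. With the adjusted p alone and no fold limit, 1 gene (Apoa2) was called in each of AM580 against Con at 48 h, V580 against Con at 24 h and V580 against Con at 48 h. Leaving out 1 library kept the other counts at 0, and at 1 for day 10 against day 6. With at least 1000 genes per cell, the leading cluster held 41.4% of the UMIs of the set. The causes of these changes were not tested.

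Replicate numbers did not pair the libraries compared: deviations of same-numbered stage libraries correlated at -0.04 to 0.07, and those of V580 days 4, 6, 8 and 10 at -0.27 to 0.32, with no 2 days over 0.1 in all 3 numbers. E12.5_GC correlated with V580 days 6 and 10 at -0.43 to 0.08, and the groups at 24 h and 48 h with each other at -0.42 to 0.21. E12.5_GC and V580 day 4, over 0.1 in all 3 numbers (0.12 to 0.34), were not compared here. With the replicate block, 5 genes were called for P6w against E16.5, the E13.5 median was 5.22, and no call was changed. Depth limits Apob, Apoh, Ambp and Serpina6 at E16.5 and P6w, where libraries held 0 to 13 counts of each.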
